A study of Mus musculus with 8 samples.

Results

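A set of 10 genes of basal and stratified epithelium was followed in the RNA of whole fetal lungs: Krt5, Krt14, Krt15, Trp63 and Ngfr, which mark basal cells, the keratins Krt4, Krt13 and Krt6a of stratified epithelium, and the desmosomal cadherins Dsg3 and Dsc3. They are 10 of the 55385 genes counted and were matched by symbol, and each was found. The members were chosen by their levels in single libraries, with the question whether the basal genes go with occlusion or with Krt4 and Krt13, keratins best known from the esophagus, so their levels and differences are a description and carry no test. Lungs came from C57BL/6 mouse fetuses at E18.5, shortly before birth. For the 4 tracheal occlusion (TO) lungs the trachea had been tied off earlier in gestation, through the wall of the uterus and together with a carotid artery and a jugular vein on one side, in fetuses that faced forward. The other 4 lungs are controls, for which no surgery is described. The dams received progesterone after the operation, and the sources name no altered gene in either group. Since the ligature took in neck vessels as well, the tracheal and the vascular part of TO cannot be told apart.

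Basal cells are the stem cells of pseudostratified and stratified epithelia. They sit on the basement membrane, held there by hemidesmosomes, and depend on the transcription factor p63, the product of Trp63. In mice they line the trachea and main bronchi and form the lowest layer of the esophagus and the epidermis. Cells that leave the basal layer of the esophagus exchange Krt5 and Krt14 for Krt4 and Krt13, whereas those of the epidermis exchange them for Krt1 and Krt10. Krt4 and Krt13 are also made in small squamous patches of the airway known as hillocks. In RNA of a whole lung, fewer cells of a type and less RNA per cell cannot be told apart.

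Read pairs on genes numbered 22822261 to 35002061 in 7 libraries and 270078 in TO 1, where 1 read pair is worth 3.43 CPM, the count scaled to library size, and 3 read pairs, taken as the floor, 10.3 CPM. CPM here are scaled by the TMM method over all 8 libraries. TO 1 is therefore given apart, with exact Poisson intervals, which cover counting error only. Control 1 and TO 4 stood apart as well, 1 library of each group, and the members' fold changes are given with and without them. The tissue label was checked against Nkx2-1, the transcription factor of lung epithelium, which was at 323 CPM in TO 1 and 489 to 748 CPM in the other libraries. The labels do not say whether the lungs came from separate litters, so that errors measure the spread between these lungs.

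Krt5 and Krt13 lie on different chromosomes and were high in the same libraries, and the 250 bases before their start sites are shown for that reason, from RefSeq on GRCm38.p6. RefSeq start windows matched 4 of the 10 members, Krt5, Krt14, Krt13 and Ngfr. The Krt5 window is chr15:101712906-101713155 and the Krt13 window chr11:100121567-100121816, both on the minus strand, printed in the direction of transcription with a motif match in capitals.
Krt5: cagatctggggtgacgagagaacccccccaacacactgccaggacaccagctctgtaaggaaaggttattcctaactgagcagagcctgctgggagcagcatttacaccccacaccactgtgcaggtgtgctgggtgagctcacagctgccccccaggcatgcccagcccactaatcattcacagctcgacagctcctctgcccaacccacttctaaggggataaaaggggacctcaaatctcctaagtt
Krt13: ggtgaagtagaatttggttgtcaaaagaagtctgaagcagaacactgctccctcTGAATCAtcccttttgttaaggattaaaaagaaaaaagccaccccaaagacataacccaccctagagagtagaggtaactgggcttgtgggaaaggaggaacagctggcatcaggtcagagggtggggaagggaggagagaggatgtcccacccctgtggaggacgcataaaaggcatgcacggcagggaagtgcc
Both strands were searched for TATAAA, for GGAATG (the core read by TEAD factors, the partners of Yap), for TGANTCA (AP-1) and for the paired half-site core of the p53 family. The Krt13 window shown held TGANTCA at -196 to -190 from the start, which 6.73% of 32536 RefSeq windows of this length also hold, and the Krt5 window held none of the 4. A second RefSeq start of Krt13, whose window chr11:100120578-100120827 lies within the gene, had TGANTCA at -183 to -177 and at -34 to -28. The RefSeq window of Krt14 also lies within the gene as GENCODE draws it, and its sequence is not shown. It held GGAATG at -66 to -61 from that start, which 12.6% of windows also hold. TATAAA is in 12.3% and the p53-family core in 5.80% of windows. These are matches of letters and not sites of binding.

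Krt4 and Krt13 set the pattern. Krt13, an acidic keratin (ENSMUSG00000044041.4, chr11:100117327-100121566, minus strand of GRCm38), was at 104 CPM in control 1, 0.780 in control 2, 0.436 in control 3 and 1.25 in control 4. In the TO lungs it was at 1.01 CPM in TO 2, 0.289 in TO 3 and 106 in TO 4. Its basic partner Krt4 (ENSMUSG00000059668.6, chr15:101918535-101924735, minus strand) was at 149, 3.25, 1.07 and 4.93 CPM in controls 1 to 4 and at 3.04, 2.11 and 134 CPM in TO 2, TO 3 and TO 4. One control lung and 1 TO lung were thus high, and the other 5 libraries lay far below both. Against the median of those 5, Krt13 was 133-fold higher in control 1 and 136-fold in TO 4, and Krt4 49.1-fold and 44.0-fold.

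Krt5, the basic keratin of basal cells (ENSMUSG00000061527.7, chr15:101707070-101712898, minus strand), followed the same 2 libraries. It was at 22.3 CPM in control 1, 0.0325 in control 2, 0.671 in control 3 and 1.29 in control 4, and at 1.59, 0.620 and 24.3 CPM in TO 2, TO 3 and TO 4. Control 2 held a single read pair. Control 1 was 33.2 times and TO 4 36.2 times the median of the other 5. Krt6a, a keratin of wounded and of mucosal stratified epithelium (ENSMUSG00000058354.7, chr15:101689910-101694307, minus strand), had 63 read pairs in control 1, 162 in TO 4 and 0 in each of the other 5. At 2.76 and 4.61 CPM it was at least 22.2-fold and 37.1-fold higher there than the floor of 3 read pairs per library, 0.124 CPM or less. Dsg3, the desmosomal cadherin of basal and lower suprabasal layers (ENSMUSG00000056632.8, chr18:20510274-20547459, plus strand), had 215 and 364 read pairs in control 1 and TO 4 (9.41 and 10.3 CPM), 1 in control 4 and 0 in control 2, control 3, TO 2 and TO 3. Of the 7 libraries, Krt6a was thus detected only in those with high Krt4 and Krt13, and so was Dsg3 but for the 1 read pair of control 4.

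Trp63 and Krt15 followed with a smaller difference from a level that every library shared. Trp63 (ENSMUSG00000022510.14, chr16:25683763-25892102, plus strand) was at 5.60, 1.92, 2.32 and 1.94 CPM in controls 1 to 4 and at 2.66, 2.15 and 6.77 CPM in TO 2, TO 3 and TO 4. Control 1 was 2.61 times and TO 4 3.15 times the median of the other 5. Krt15, an acidic keratin of basal cells (ENSMUSG00000054146.8, chr11:100131758-100135928, minus strand), was the most abundant member in all 7 libraries, per length as well as in CPM. It was at 177, 117, 101 and 102 CPM in controls 1 to 4 and at 109, 86.3 and 185 CPM in TO 2, TO 3 and TO 4. The ratio to the median of the other 5 was 1.75 in control 1 and 1.82 in TO 4. In CPM the difference was nevertheless large, 75.7 in control 1 and 83.5 in TO 4, beside 103 and 106 for Krt13 and 21.6 and 23.7 for Krt5.

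Krt14, Ngfr and Dsc3 did not separate these libraries from the rest. Krt14, the acidic partner of Krt5 (ENSMUSG00000045545.8, chr11:100203162-100207548, minus strand), was at 3.15, 1.56, 2.22 and 1.90 CPM in controls 1 to 4 and at 1.85, 3.39 and 3.87 CPM in TO 2, TO 3 and TO 4, so that TO 3 lay above control 1. Ngfr, a neurotrophin receptor of basal cells that Schwann cells and nerve also carry (ENSMUSG00000000120.6, chr11:95568818-95587735, minus strand), was at 4.55, 1.76, 4.30 and 5.54 CPM in the controls and at 4.89, 7.64 and 7.16 CPM in TO 2, TO 3 and TO 4. Its highest library was TO 3, where Krt13 was lowest. Dsc3, a desmosomal cadherin of the same layers as Dsg3 (ENSMUSG00000059898.9, chr18:19960930-20002351, minus strand), was at 0.0325 to 0.455 CPM in all 7, from 1 to 11 read pairs, with 7 in each of control 1 and TO 4. A rise like that of Dsg3, to 215 and 364 read pairs, was thus absent for Dsc3. A small difference of Dsc3 between these libraries was not detectable at such counts.

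**Figure D1:**
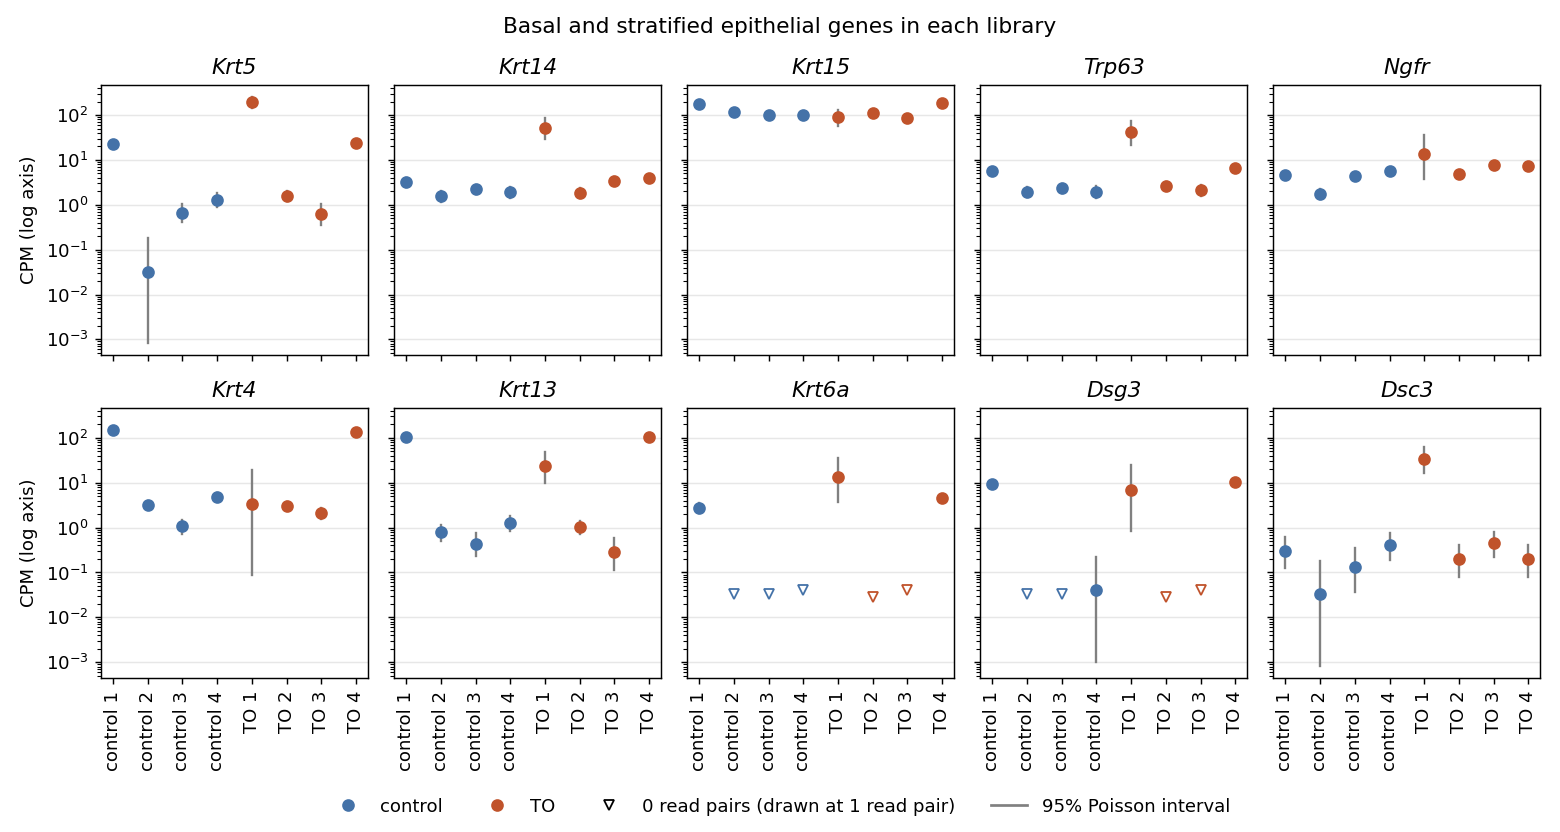
CPM of the 10 genes in each of the 8 libraries on a log axis, with 95% Poisson intervals for counting error and open triangles for libraries with 0 read pairs. Krt4, Krt13, Krt5, Krt6a and Dsg3 are high in control 1 and TO 4, Krt15 and Trp63 follow with a smaller difference, and TO 1 is high for Krt5, Krt14, Trp63 and Dsc3.

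The counts over the members give the same order. Of the 8 members other than Krt4 and Krt13, 6 had their highest level in control 1 or TO 4 (Krt5, Krt14, Krt15, Trp63, Krt6a and Dsg3), where Krt4 and Krt13 themselves were highest, beside 26.9% of all 21859 genes tested. Krt6a and Dsg3 are not among the genes tested, which needed 5 reads in at least 3 of 6 libraries, so count and share come from unlike sets. Over the 7 libraries 9 members averaged at least 1 CPM, and in 7 of these 9 control 1 and TO 4 were the first and second libraries in either order, against 6.17% of the 15895 genes at that level. Requiring 1 CPM in both and 3 times the highest of the other 5 left 67 genes (0.21% of the 31861 genes with a read), of which Krt4, Krt13, Krt5, Krt6a and Dsg3 are 5. These values chose the members, so nothing is read from their share. Per kilobase of exon, on which scale genes can be compared, control 1 held Krt15 at 100, Krt4 at 69.9, Krt13 at 57.1 and Krt5 at 10.1 CPM per kb, and the other members were at 1.79 or less. In control 2, where Krt13 was at 0.429 CPM per kb and Krt5 at 0.0148, Krt15 was still at 66.0.

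**Figure D2:**
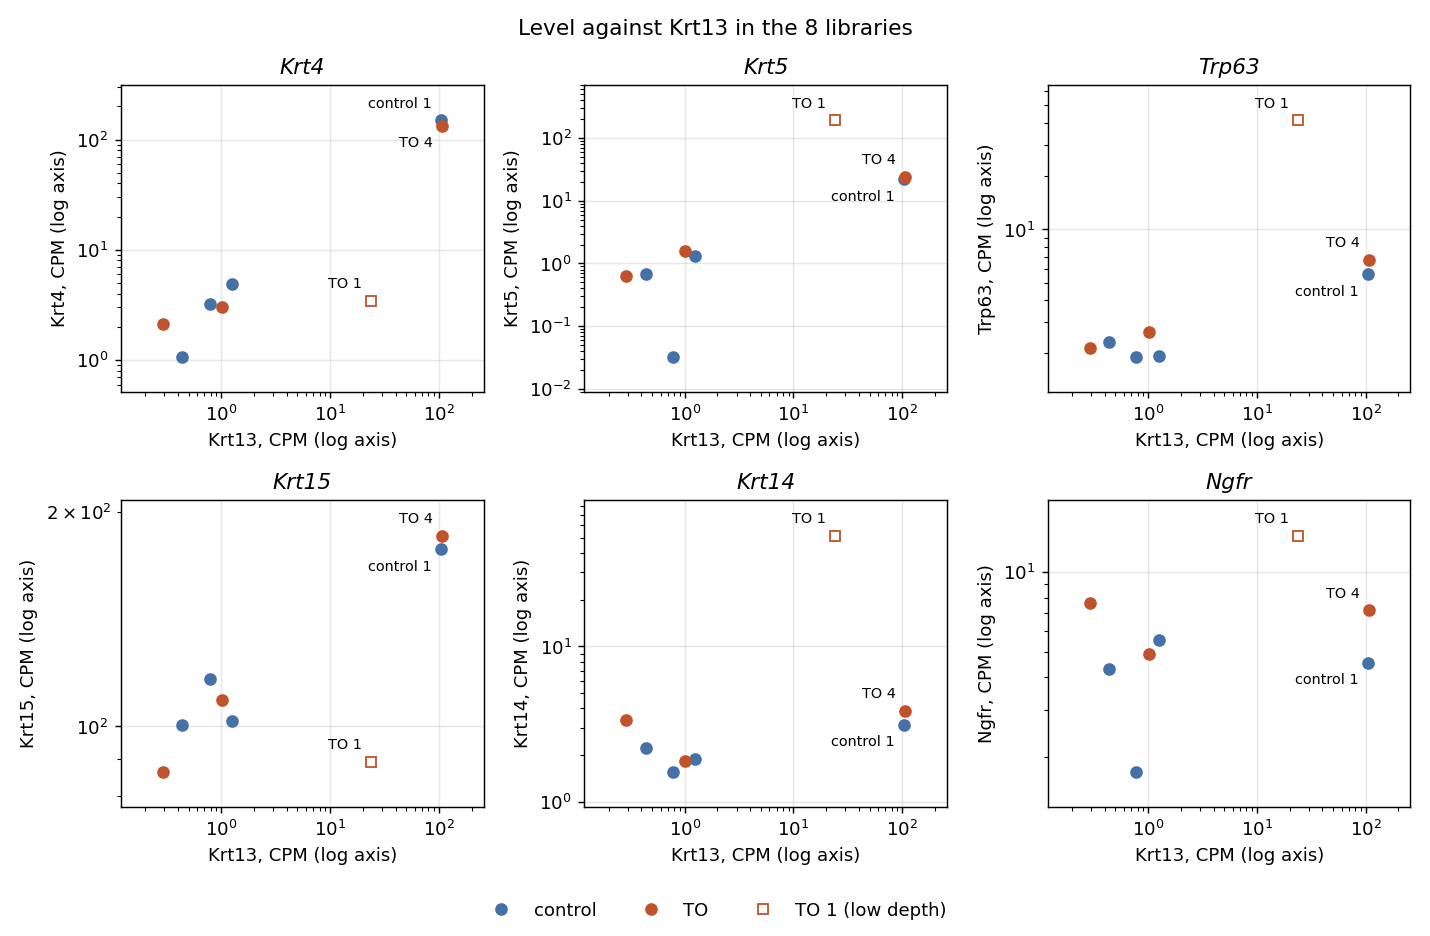
Krt4, Krt5, Trp63, Krt15, Krt14 and Ngfr plotted against Krt13 in the 8 libraries, in CPM on log axes, 1 point per library. Control 1 and TO 4 lie together at 104 and 106 CPM of Krt13 in every panel and are the highest of the 7 deeply sequenced libraries for Krt4, Krt5, Trp63 and Krt15, but not for Ngfr.

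Control 1 and TO 4 held several members in similar proportions to one another. For every 100 read pairs of Krt13, Krt5 had 21.4 in control 1 (95% counting interval 19.5 to 23.6) and 22.9 in TO 4 (21.2 to 24.6). Dsg3 had 9.06 (7.88 to 10.4) and 9.72 (8.73 to 10.8), and Trp63 5.39 (4.51 to 6.44) and 6.36 (5.57 to 7.24). These intervals overlap, as did those of Krt15, at 171 and 174, and of Krt14. Krt13 was at 104 and 106 CPM in these libraries, so any gene with a like level in both gives like ratios. Krt15 and Krt14 also had much of their level in the other 5 libraries, with medians of 102 and 1.90 CPM. The ratio of Krt4 was higher in control 1, at 144 (136 to 151) against 126 (120 to 131), and that of Krt6a higher in TO 4, at 4.33 (3.70 to 5.06) against 2.65 (2.07 to 3.41). Ngfr also differed, at 4.38 in control 1 and 6.73 in TO 4. The intervals cover counting error only.

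TO was then compared with control in 6 libraries, controls 1, 2 and 4 and TO 2, 3 and 4, with the quasi-likelihood test of edgeR. Of the 10 members, 8 had at least 5 reads in 3 libraries and were tested. Krt6a and Dsg3 had them in 2 and were not. No member was called at an adjusted p under 0.1, nor was any of the 21859 genes (0%), and 0 members had an unadjusted p under 0.05, beside 5.14% of all genes (1123). DESeq2 called 44 genes and limma-voom 0, with no member among them. The groups overlapped in each of the 8 members, whereas they did not in 10.9% of all genes. The log2 fold change was above 0 for 6 of the 8, against 49.3% of all genes, with a median of 0.20 over the 8 and of -0.00449 over all genes tested. With control 3 added, 8 of the 8 were above 0, Krt4 at 0.23 (SE 1.66) and Krt15 at 0.03 (SE 0.28) among them.

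Most of the members' differences were small beside the spread between lungs. Krt13 was at 35.3 ± 59.4 CPM in control and 35.9 ± 61.1 in TO lungs (SD, n = 3 each), a log2 fold change of 0.05 (SE 1.90). Krt4 was at 52.5 ± 83.8 and 46.3 ± 75.7 CPM, a log2 fold change of -0.16 (SE 1.62), and Krt5 at 7.87 ± 12.5 and 8.85 ± 13.4 CPM, a log2 fold change of 0.20 (SE 1.56). In each of these genes the SD exceeded the mean. The spread was narrower for Krt15, at 132 ± 40.1 and 127 ± 51.8 CPM with a log2 fold change of -0.05 (SE 0.29), and for Trp63, at 3.15 ± 2.12 and 3.86 ± 2.53 CPM with 0.31 (SE 0.57). Krt14 differed by 0.46 (SE 0.43) and Ngfr by 0.73 (SE 0.42) on the log2 scale.

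The direction of the squamous keratins turned on which of the 2 libraries was present. Without control 1 the log2 fold change of Krt13 was 5.16 (SE 2.29), of Krt4 3.51 (SE 1.72), of Krt5 3.79 (SE 1.76) and of Trp63 1.005 (SE 0.57). Without TO 4 they were -5.67 (SE 2.14), -4.33 (SE 1.61), -2.79 (SE 1.66) and -0.38 (SE 0.55). Without both they were -0.61 (SE 0.90), -0.66 (SE 0.45), 0.77 (SE 1.32) and 0.32 (SE 0.49). Krt15 was at 0.22 (SE 0.29) without control 1, -0.43 (SE 0.23) without TO 4 and -0.16 (SE 0.17) without both. Ngfr was between 0.67 and 0.86 in these 3 fits and Krt14 between 0.25 and 0.81. Other libraries moved Ngfr more, to 0.38 (SE 0.31) without control 2, where it was lowest, and to 1.06 (SE 0.46) without control 4. Dsc3 was at 0.19 (SE 1.14) in the 6 libraries and 0.60 (SE 1.37) without control 1 and TO 4. With neither library, 5 of the 8 members were higher in TO.

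**Figure D3:**
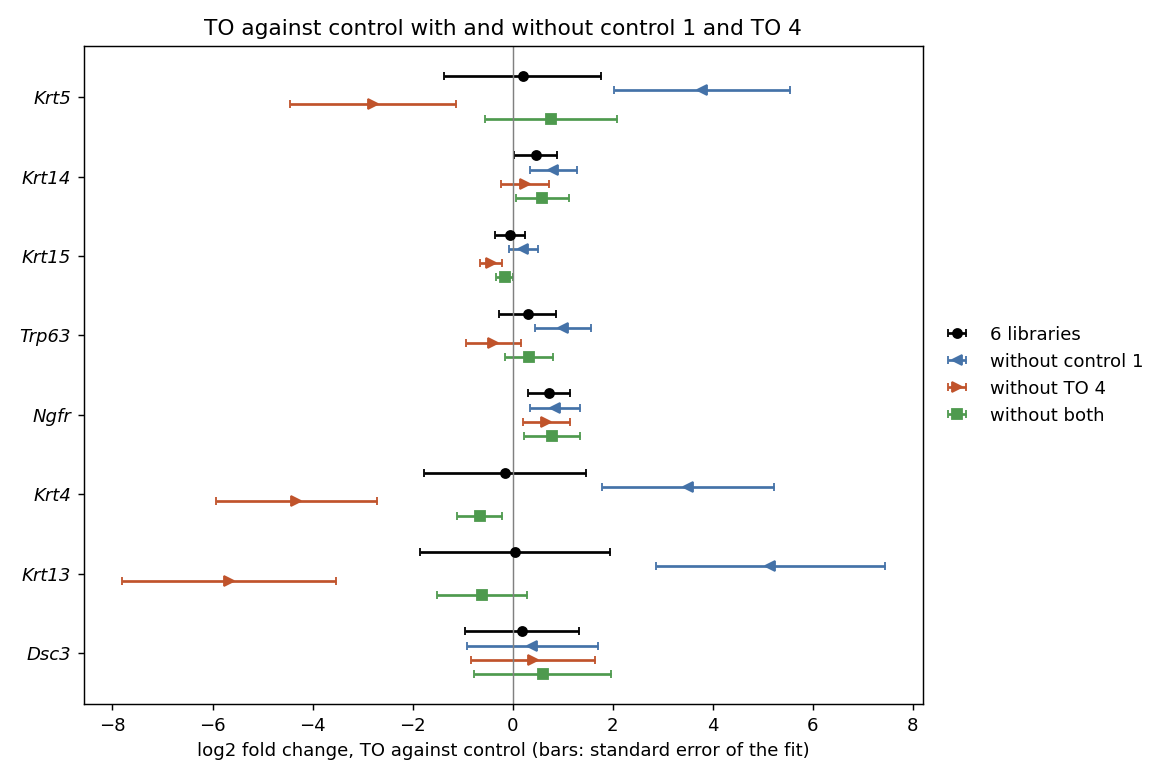
Log2 fold change of TO against control for the 8 members tested, with the standard error of the fit, in the 6 libraries, without control 1, without TO 4 and without both. Krt13 moves from 5.16 to -5.67, Krt4 from 3.51 to -4.33 and Krt5 from 3.79 to -2.79 depending on the library left out, whereas Ngfr lies between 0.67 and 0.86 in these 3 fits.

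Other genes of stratified mucosa were followed through a list of 24. Of the 11 that averaged at least 1 CPM, 4 had control 1 and TO 4 as their first and second libraries, against 6.17% of all genes at that level. Among the 67 genes set apart above, 0.21% of those with a read, were 5 of the 24. Those were regulators and products of foregut and oral squamous epithelium. Pitx1 was at 8.49 CPM in control 1 and 7.56 in TO 4 and at 0 to 0.470 in the other 5. Pax9 was at 5.03 and 5.37 CPM against 0.195 to 0.896, Tgm3, a transglutaminase of cornifying cells, at 2.85 and 3.67 against 0 to 0.403, and Foxe1 (2.19 and 2.53) and Sprr3 (1.58 and 2.19) had no read in the other 5. Per 100 read pairs of Krt13, Pax9 had 4.84 in control 1 and 5.05 in TO 4, Foxe1 2.11 and 2.38, and Pitx1 8.17 and 7.10, each pair with overlapping counting intervals. The list's summed level, 282.7 to 385.0 CPM in the 7 libraries, did not separate the 2, since Ppl, a plakin of cell junctions at 120 to 196 CPM, and Mal, at 62.2 to 97.9 CPM, which other epithelia also make, held much of it. Crnn, a product of mature esophagus, had reads in TO 4 alone of the 8, at 0.313 CPM.

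Most genes that a basal cell uses together with the members did not follow. Control 1 and TO 4 came first and second in 6.17% of all 15895 genes at a mean of 1 CPM or more. A count of 1 in the lists below is near that share, and nothing is read from it. Among 9 genes of hemidesmosomes and basement membrane attachment, all at 1 CPM or more, control 1 and TO 4 came first and second for 1, the collagen Col17a1, at 18.4 and 15.6 CPM against 7.36 to 10.1. Bcam (496 to 813 CPM) and Lama3 (301 to 527 CPM), the most abundant, did not follow. In TO against control they had log2 fold changes of -0.36 (SE 0.13) and -0.39 (SE 0.15) in edgeR with control 1 and TO 4 included. Their unadjusted p by edgeR were 0.0197 and 0.0279, and their adjusted p 0.907 each. In that fit 5.14% of all genes had an unadjusted p under 0.05. This list summed to 2652 to 2851 CPM in the controls and 2095 to 2490 CPM in TO 2, TO 3 and TO 4, with 3 of its 9 genes higher in TO. Among 10 further genes of airway basal cells, 9 averaged 1 CPM, and the 1 that followed was the keratin Krt17, at 3.90 and 4.24 CPM against 0.772 to 1.69. Icam1 (73.0 to 202 CPM) and Jag2 (73.6 to 101 CPM), the most abundant, were lowest in TO 4 and in control 1, respectively. Of 13 partners of p63 and stratification factors, 10 averaged 1 CPM, and Grhl3 was the 1 that followed, at 5.60 and 5.86 CPM against 2.15 to 3.96, whereas Klf5 (103 to 151 CPM) and Trp53 (57.3 to 97.9 CPM) did not. Of 11 desmosome partners, 8 averaged 1 CPM and 2 followed, the plakophilin Pkp1, at 10.4 and 14.0 CPM against 0.0578 to 2.38, and the cadherin Dsc2, at 13.0 and 19.7 CPM against 3.12 to 9.02, whereas Jup (266 to 393 CPM) and Dsp (153 to 313 CPM) did not. In none of these 4 lists was a gene called by edgeR.

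The genes most like Krt4 and Krt13 over the 7 libraries were sought among all genes tested at a mean of 1 CPM, by Pearson's r of log2 CPM, which here describes a ranking only, because the 7 points fall into 2 and 5. The first 6 were Col6a5 (r = 0.989), Lgi2 (0.987), Apoh (0.987), Ggh (0.981), Stk26 (0.978) and Pacsin1 (0.974). On the same measure Dsg3 stood at 0.988, Krt6a at 0.979, Krt15 at 0.964, Trp63 at 0.944 and Krt5 at 0.887. Krt14 was at 0.61, Ngfr at 0.23 and Dsc3 at 0.15. The genes most like Krt5, Krt14, Krt15 and Trp63 together were Serpina1a (0.992), Gc (0.985), Apoa2 (0.984), Pax9 (0.984), Zfp750 (0.983) and Zfp937 (0.982). Of these 12, Apoh, Serpina1a, Gc and Apoa2 encode plasma proteins made by the liver, and Zfp750 is a factor of epidermal differentiation.

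Genes of hepatocytes were therefore given per library, through a list of 20 written after these values had been seen. Albumin (Alb) was at 504 CPM in control 1 and 240 in TO 4, and at 1.66 to 13.0 in the other 5. Apoa1 was at 34.2 and 30.3 CPM against 0 to 3.82. Of the 20 genes, 18 were among the 67, which are 0.21% of the genes with a read. The summed level was 1041 CPM in control 1 and 491 in TO 4, against 4.85 to 39.8 in the other 5. The same libraries were thus high in squamous and in liver genes. Albumin and Afp differed between them. Per 100 read pairs of Krt13, Alb had 485 in control 1 (464 to 507) and 226 in TO 4 (217 to 234). Afp, the fetal albumin, was at 204 CPM in control 1 and at 3.61 in TO 4, within the 0.488 to 7.52 of the others. The part of such RNA in the members' levels was not tested.

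Summed levels of genes of other tissues near the lung did not set control 1 and TO 4 apart as a pair in the way those of liver did, though single genes of some lists followed them. Of the genes at 1 CPM, control 1 and TO 4 came first and second for 3 of 9 of airway cartilage and 2 of 7 of skeletal muscle. They did so for 0 in the lists of airway epithelium, epidermis, thymic epithelium, thymocytes and Schwann cells, and for 6.17% of all genes at that level. Summed over 10 skeletal muscle genes the level was 135 and 309 CPM against 22.7 to 212 in the other 5, with Ckm at 8.72 to 138 CPM and Acta1 at 2.05 to 55.3 CPM. Over 11 genes of airway cartilage it was 165 and 156 CPM against 97.3 to 193, with Hapln1 at 29.1 to 89.7 and Sox9 at 23.3 to 46.9 CPM. Over 12 airway epithelial genes it was 3293 and 2597 CPM against 2846 to 4001, with Scgb3a2, a secretory protein of club cells, at 466 to 1252 CPM. Over 13 epidermal genes it was 13.5 and 10.4 CPM against 2.69 to 10.7. Over 7 genes of thymic epithelium it was 28.4 and 22.5 CPM against 22.1 to 26.9, led by Ccl25 (9.43 to 13.8 CPM) and Ly75 (3.67 to 8.14 CPM), and over 10 thymocyte genes 2.80 and 3.81 CPM against 2.08 to 24.0. Over 8 genes of Schwann cells and nerve, which could carry Ngfr, it was 199 and 183 CPM against 191 to 292, with Erbb3 at 161 to 274 CPM. Their part in the members' levels was not tested.

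**Figure D4:**
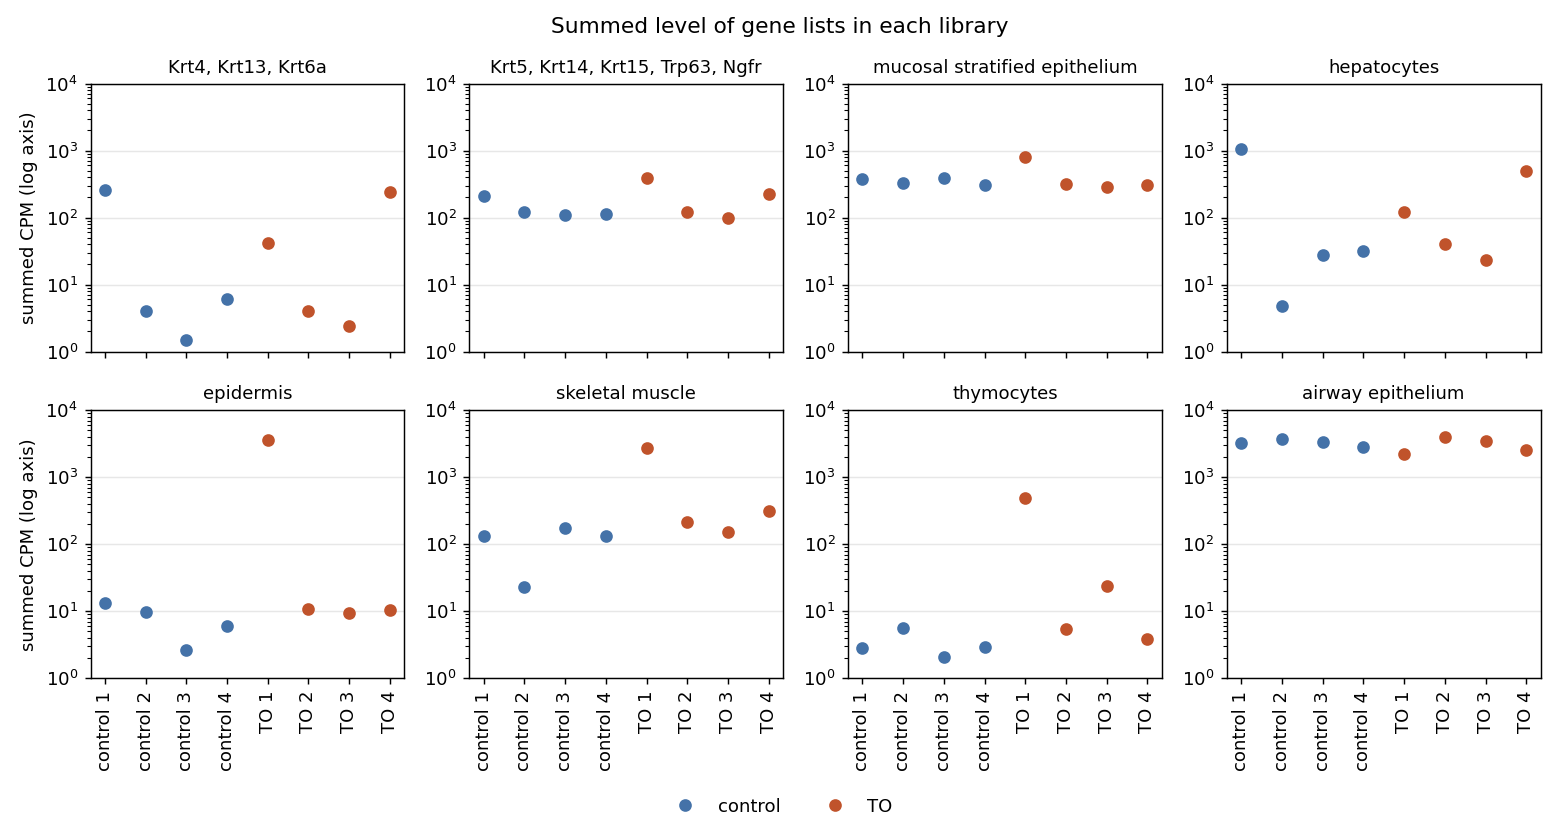
Summed CPM of 8 gene groups in each library, on log axes. Control 1 and TO 4 are high for Krt4, Krt13 and Krt6a and for hepatocyte genes, TO 1 is high for epidermal, skeletal muscle and thymocyte genes, and airway epithelial genes lie between 2225 and 4001 CPM in all 8 libraries.

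TO 1 held basal genes with a different set of partners. Krt5 had 56 read pairs there, or 192 CPM (95% interval 145 to 250), Krt14 15 read pairs or 51.5 CPM (28.8 to 84.9), Trp63 12 or 41.2 CPM (21.3 to 72.0) and Dsc3 10 or 34.3 CPM (16.5 to 63.1). Each interval lay above the level of that gene in all other libraries. Krt15 was at 89.3 CPM (58.3 to 131), within the range of the others. Krt13 had 7 read pairs, 24.0 CPM (9.66 to 49.5), below control 1 and TO 4, and Krt4 had 1, 3.43 CPM (0.0869 to 19.1). Krt6a and Ngfr had 4 read pairs each and Dsg3 2, close to or under the floor. Per 100 read pairs of Krt13, Krt5 had 800 in TO 1 (365 to 1755).

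Among the keratins that stood above the other libraries in TO 1 beside Krt5 were those of epidermis. Krt8 (203 CPM) and Krt19 (185 CPM) had a level like that of Krt5 there, but below their highest in the other 7 (384 and 399 CPM). Krt1 was at 1339 CPM in TO 1 and at 0.323 to 1.36 in the other 7. Krt10 was at 958 CPM there and at 1.38 to 6.00 in the other 7, Lor (loricrin) at 649 against 0.269 to 3.47, and Hrnr (hornerin) at 213 against 0 to 0.145. Of the 13 epidermal genes, 12 had at least 3 read pairs and 10 times the highest other library, as did 131 genes in all (0.411% of those with a read), Krt14 and Dsc3 among them. The desmosomal cadherins Dsc1 (65.2 CPM, 19 read pairs) and Dsg1a (41.2 CPM, 12 read pairs) of epidermis had at most 0.0853 CPM elsewhere. Skeletal muscle genes summed to 2743 CPM and thymocyte genes to 484 CPM in this library, and its airway epithelial genes to 2225 CPM. The list of 24 mucosal genes summed to 807 CPM, above the other 7 libraries, and 5 of its genes, Dmkn (209 CPM), Krtdap (113 CPM), Ly6d, Ivl and Cnfn, which epidermis also makes, had 10 times their highest other level. Pitx1, Foxe1 and Sprr3 of that list had no read, which at this depth allows up to 10.3 CPM each, and Pax9 had 4 read pairs. The part of these tissues in the basal genes of TO 1 was not tested.

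The comparison of all 8 libraries gave larger fold changes for genes that were high in TO 1. With it and control 3 included, log2 fold changes were 2.37 (SE 1.81) for Krt5, 1.77 (SE 0.93) for Krt14, 1.25 (SE 0.83) for Trp63 and 4.76 (SE 1.88) for Dsc3, and again no member was called. The groups overlapped in all 10. Krt5 was then at 6.07 ± 10.8 CPM in control and 54.7 ± 92.4 in TO lungs (SD, n = 4 each). Krt4, at 0.06 (SE 1.49), and Krt15, at -0.04 (SE 0.26), were near 0. Of these 8 libraries, those other than control 1, TO 4 and TO 1 gave 0.75 (SE 1.17) for Krt5, 0.46 (SE 0.49) for Krt14, 0.22 (SE 0.45) for Trp63 and 0.78 (SE 1.34) for Dsc3.

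Of 54 keratin genes counted, 37 had a read in the 7 deeply sequenced libraries and 17 averaged at least 1 CPM. In 6 of the 17, control 1 and TO 4 came first and second: Krt13, Krt15 and Krt17 on chromosome 11, among the acidic keratins, and Krt4, Krt5 and Krt6a on chromosome 15, among the basic ones. All of these but Krt17 are members, chosen by such levels. Of all 15895 genes at a mean of 1 CPM or more, 6.17% had control 1 and TO 4 first and second. In TO 1, 5 keratins had 10 times their highest other level, Krt10, Krt14 and Krt17 on chromosome 11 and Krt1 and Krt77 on chromosome 15. Keratins resemble each other in sequence, most of all Krt6a and its copy Krt6b, and reads that fit several places were not counted, so levels of such genes are uncertain. Counting did not use strand, and Krt5, Krt6a and Trp63 each overlap at least 1 other gene model.

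The libraries' deposited names carry a number whose meaning the labels do not give. It is 3482 for control 1, control 4, TO 1 and TO 4, 3573 for control 2 and TO 2, and 3604 for control 3 and TO 3. The libraries with high Krt4 and Krt13 thus share a number with control 4, where Krt13 was at 1.25 CPM, and with TO 1, where it rests on 7 read pairs. Within this number, TO 4 and control 1 had Krt5 at 24.3 and 22.3 CPM and control 4 had it at 1.29. In the pair numbered 3573 it was at 0.0325 CPM in control 2 and 1.59 in TO 2, and in the pair numbered 3604 at 0.671 in control 3 and 0.620 in TO 3. Trp63 was at 1.92 and 2.66 CPM in the first of these pairs and 2.32 and 2.15 in the second, with 1 lung of each group in a pair.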

How the data were processed

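Whole lungs of 4 control and 4 TO fetuses were sequenced by the authors as 150-bp read pairs from NexteraXT libraries. The authors aligned them to GRCm38 with STAR (version not given in the sources used here) and deposited raw counts of read pairs per gene, in 1 column without regard to strand, used here, and 2 by strand. Reads that align to several places are not counted on genes. The rows that sum read pairs on no gene, on several genes or at several places, 23.1% to 27.1% of all, were left out. Symbols, coordinates and exon lengths are those of GENCODE M21, matched for 55144 of 55385 IDs.

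TMM factors for CPM came from all 8 libraries, and log2 CPM used a prior count of 2. TO was compared with control in 6 libraries (21859 genes, filtered on 5 reads in no fewer than 3 of them) by the quasi-likelihood test of edgeR 4.0.16 with Benjamini-Hochberg adjustment and a threshold of 0.1, in R 4.3.3. DESeq2 1.42.0, limma-voom (limma 3.58.1), other scalings and filters, 1 strand, blocks, all 8 libraries and leaving out libraries were alternatives. Tested on simulated data with the 6 libraries' depths, edgeR called 134 of 200 genes changed by a log2 fold of 2, and 11 unchanged genes. The simulated spread followed the trend over all genes and held no library set apart as control 1 and TO 4 are. Recovery of genes that are high in those libraries was therefore not measured. Read pairs on genes numbered 270078 in TO 1 and 22822261 to 35002061 elsewhere, and intervals cover counting error only. Tables and figures were made in Python 3.11.15.

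The members and all gene lists were chosen with earlier results of these data known. Besides the members, the text names the 2 most abundant genes of each of 12 lists, any called by edgeR (none were), and the 6 genes most like Krt4 and Krt13 and the 6 most like Krt5, Krt14, Krt15 and Trp63. A single such gene is left out of the text. Other genes, and the list of hepatocyte genes, were chosen after their values were seen.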

Additional observations from a re-analysis of the deposited data

Results flagged for a closer look

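In each of the 10 genes, the 4 control libraries and the 4 TO libraries were examined for 1 library far from the other 3 by Dixon's criterion, 20 groups in all, of which chance alone would mark about 1 in 20. In 11 cases a library was marked. Control 1 stood far above the other controls for Krt5 (22.3 CPM), Trp63 (5.60 CPM), Krt4 (149.2 CPM), Krt13 (103.9 CPM), Krt6a (2.76 CPM) and Dsg3 (9.41 CPM). TO 4 stood far above the other TO libraries for Krt4 (133.7 CPM). TO 1 stood far above the other TO libraries for Krt5 (192.3 CPM), Krt14 (51.5 CPM), Trp63 (41.2 CPM) and Dsc3 (34.3 CPM), on 10 to 56 read pairs each. The genes were chosen for their levels in single libraries and share those libraries, so the marks describe these levels, and their number cannot be set against the share that chance gives.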

How the results depend on the processing

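The count of genes called, 0 in the 6 libraries, was also 0 with limma-voom, size factors in edgeR, no TMM scaling, 5 reads required in every library, 1 strand, all 8 libraries, 7 libraries and a block by the number in the libraries' names. It was 44 with DESeq2, 40 with every gene that had a read, and 3 without control 1 and TO 4, an alternative chosen after seeing the data. Leaving out 1 library at a time gave 0 to 144, with 144 without TO 4 and 52 without control 4. Of the 8 members tested, 6 were higher in TO, and between 3 and 8 when 1 library was left out, with 3 without control 2 and 3 without TO 4. With the block by the number in the libraries' names, 8 of the 8 were higher in the 6 libraries, where TO 3 has no partner. Krt5 was then at 1.86 (SE 1.01), Trp63 at 0.70 (SE 0.46) and Ngfr at 0.92 (SE 0.34). Of the 8 members compared with Krt4 and Krt13, the 6 whose highest library was control 1 or TO 4 became 5 to 7 when 1 library was left out. Over the 8 members' fold changes, none of 53 values under another tool, scaling, filter or strand moved by more than the spread between libraries. That spread is wide, so large moves can stay within it. Krt5 was at 0.20 (SE 1.56) in edgeR and 2.02 (SE 1.98) in limma-voom, and Dsc3 at 0.19 (SE 1.14) and 0.63 (SE 1.14). The likeness to Krt4 and Krt13 was lower for 6 members as Spearman's rho, at 0.79 for Krt5, 0.25 for Krt14, 0.79 for Krt15, 0.54 for Trp63, 0.76 for Krt6a and 0.87 for Dsg3. With a replicate block, edgeR called 219 genes in the 6 libraries, Krt4, Krt5 and Krt13 among them, and 3 in all 8. In the 6 libraries that block compares control 2 with TO 2 and control 4 with TO 4 and leaves control 1 and TO 3 without a partner. The log2 fold change of Krt13 was then 4.47. The labels do not pair the lungs. Over the 8 libraries, lungs of the same replicate number correlated in their deviations from the group means at 0.066, 0.24, 0.25 and 0.13. Control 1 correlated most with TO 4, at 0.17, so pairing by replicate number was not established. Each control correlated most with a TO lung that shares its number in the libraries' names, which is 3482 for control 1 and TO 4. TO 1, with 270078 read pairs, limits what can be said of any gene under 10.3 CPM there.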
